A study of Mus musculus with 8 samples.

Results

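Binding of the glucocorticoid receptor (GR) was examined around 5 genes, Dusp1, Nfkbia, Tnfaip3, Zfp36 and Tnip1, whose products restrain inflammatory signalling. The genes were chosen by name, with earlier results of these data known, and stand against 21951 annotated protein-coding genes. GR chromatin immunoprecipitation sequencing (ChIP-seq) lists from 6 liver libraries were merged wherever regions overlapped, which gave 51431 GR sites in all. A site was assigned to a gene when its centre lay within 50 kb of where the gene record starts (mouse build mm10, GENCODE M21). This gave 52 sites: 20 at Dusp1, 14 at Nfkbia, 12 at Zfp36, 3 at Tnfaip3 and 3 at Tnip1.

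Livers came from male C57BL/6J mice that were fed chow and were sampled at zeitgeber time 12, the onset of the dark phase. By the study's methods, the feeding protocol of control and restricted mice began at 12 weeks of age and ran for weeks. Corticosterone mice were 12 weeks old before 2 weeks of adaptation to handling, which preceded the injections. Age at sampling and handling may therefore have differed between CORT and the other groups, and cannot be told apart from the hormone. Control mice (ctrl. in the plots) ate freely until the last week, when food was limited to the night. Restricted mice (cal. res.) received a ration that was lowered step by step over weeks and was given at the onset of the night, and the labels do not give its final size. Corticosterone mice (CORT) had food only at night during the treatment and were injected intraperitoneally with 5 mg/kg corticosterone daily for 7 days. Each group had 2 libraries, called 1 and 2 here. The labels of the control group do not mention an injection, so that the injection and the hormone cannot be told apart. A further list holds binding of the transcription factor FOXO1, called by the authors on 2 merged libraries from restricted mice. Livers are mixed tissue, and the lists do not show which liver cells the binding came from.

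Glucocorticoids enter the cell, bind GR and drive it to the nucleus, where GR occupies enhancers and promoters, either as a dimer on its palindromic response element or together with other factors. Genes switched on by GR that dampen NF-kB and MAP kinase signalling are among the best known mediators of the anti-inflammatory action of these hormones. Nfkbia encodes IkBα, which holds NF-kB in the cytoplasm. Tnfaip3 encodes A20, a ubiquitin-editing enzyme that shuts off NF-kB signalling, and Tnip1 encodes an A20-binding partner. Dusp1 encodes a phosphatase that inactivates MAP kinases, and Zfp36 encodes tristetraprolin, which directs cytokine mRNAs to decay.

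The lists hold peaks, not reads, so each value below is the fold enrichment at a summit over local background as the peak caller gave it, or the percentile of that fold within the list of its library (100 is the strongest region). Lists ranged from 12458 regions (control 2) to 39136 (CORT 2), and the depth of single libraries is not known from the lists. At the 5 loci control 2 had a peak at 14 of the 52 sites and CORT 2 at 47, against 25 and 24 for the restricted libraries, 34 for CORT 1 and 35 for control 1. Over all sites the shares with a peak were 22.3% in control 2 and 73.6% in CORT 2. They were 40.3% and 33.7% in restricted 1 and 2, 53.8% in CORT 1 and 67.6% in control 1. A missing peak therefore says only that a region did not enter that list. A site was counted as held by a group if each of the group's 2 libraries contained a peak at it. Library identifiers come in a pair of styles, 1 shared by control 2 and both restricted libraries and the other by control 1 and both CORT libraries, and style and group cannot be told apart between restricted and CORT livers.

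The members differed widely in how much GR binding surrounded them. All 5 genes had at least 1 site held by all 3 groups, which was the case for 37.9% of protein-coding genes. Zfp36, Nfkbia and Dusp1 each had a site near the top of every list, and their strongest sites ranked above those of 99.9%, 99.2% and 97.4% of the 16081 genes with any site. The strongest site counted for Dusp1 lay in an intron of the gene Ergic1, as described below. The strongest sites of Tnfaip3 and Tnip1 ranked above those of 75.0% and 66.2%. The median protein-coding gene had 3 sites in its window, the number found at Tnfaip3 and at Tnip1.

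**Figure D1:**
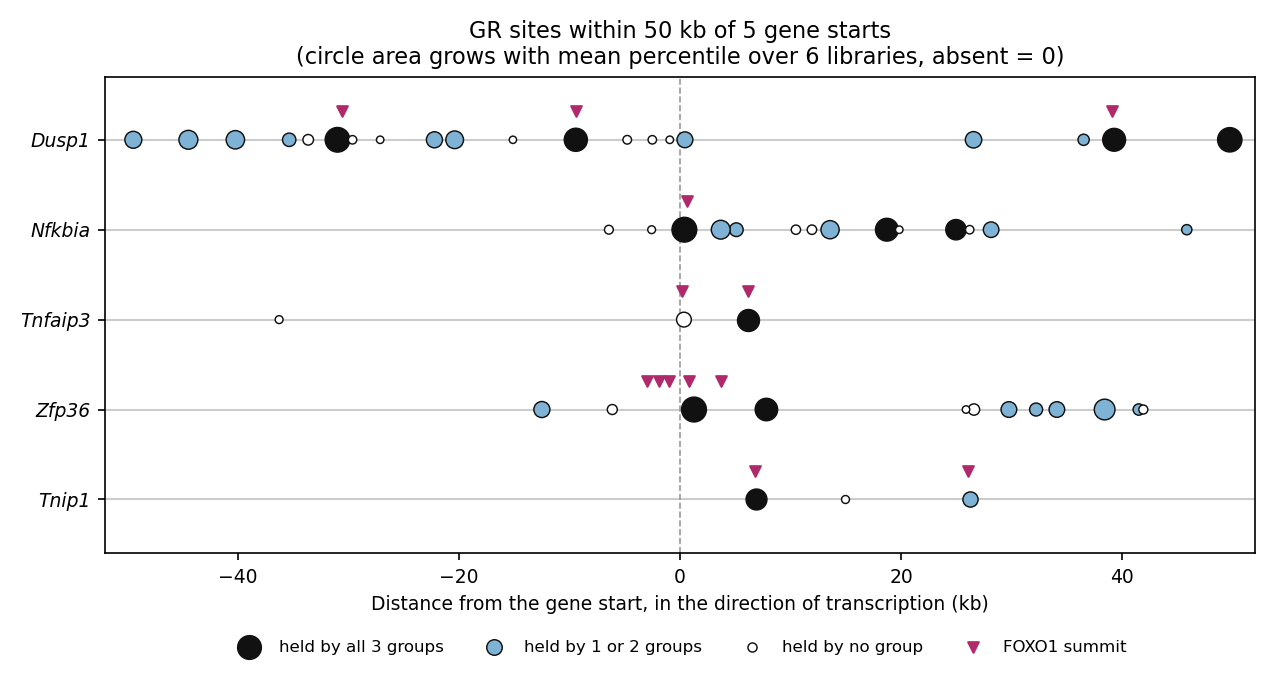
Each row is 1 gene, the horizontal axis is the distance of a GR site's centre from the gene start in kb (positive is downstream in the direction of transcription), circles are the 52 sites, with area growing with the mean percentile over 6 libraries, and triangles are the 13 FOXO1 summits. Black circles are the 11 sites held by all 3 groups, blue circles the 21 held by 1 or 2 groups and open circles the 20 held by none. Sites are many at Dusp1, Nfkbia and Zfp36 and few at Tnfaip3 and Tnip1.

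Of the 52 sites, 24 had their summit in an intron, 22 between genes and 6 in an exon. The nearest protein-coding start was that of the member itself for 37 sites, among them all 14 at Nfkbia, all 3 at Tnfaip3 and all 3 at Tnip1, but only 2 of 12 at Zfp36, whose window also holds the starts of Supt5, Rps16, Plekhg2, Med29 and Paf1. Dusp1 needs a caution. Its gene record begins at chr17:26562128 because of a single long transcript, whereas its RefSeq start lies 53.7 kb further downstream, so 16 of its 20 sites fall within the neighbouring gene Ergic1. Counted around the RefSeq start, Dusp1 had 7 sites, 4 of them shared with the first count.

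Control livers held 13 of the 52 sites, restricted livers 19 and CORT livers 32. Over all sites the corresponding shares were 21.4%, 27.9% and 43.7%, so that the order of the groups at these loci was the order of the whole lists. All 3 groups held 11 of the 52 sites, against 15.7% of all sites. These were 4 sites at Dusp1, 3 at Nfkbia, 2 at Zfp36 and 1 each at Tnfaip3 and Tnip1. By definition each of the 11 had a peak in all 6 libraries. No site was held by control or by restricted livers alone (1.4% and 2.39% of all sites), and 11 of 52 were held by CORT livers alone (15.2% of all sites).

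Restricted livers held 8 sites that control livers did not, 3 at Dusp1, 3 at Nfkbia and 2 at Zfp36, against 11.5% of all sites. All 8 had a peak in control 1 and were missing only from the short list of control 2, and all 8 were held by CORT livers as well, as were 79.3% of all sites gained in restricted livers. No site was held by restricted livers with no peak in either control library, a class that made up 0.842% of all sites. CORT livers held 19 sites that control livers did not, against 24.3% of all sites, and 14 of the 19 had a peak in control 1. Over all sites, 91.8% of restricted and 81.0% of CORT gains had a peak in control 1. Without control 2 the gains numbered 0 in restricted and 5 in CORT livers, and with lists of equal length they numbered 5 and 4. Within the libraries of a single identifier style, restricted livers gained 8 sites over control 2 and CORT livers gained 5 over control 1.

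With no peak in either control library, CORT livers held 4 of the 52 sites, against 4.28% of all sites. They lay 36.5 and 26.6 kb downstream of the Dusp1 gene start and 41.5 and 32.2 kb downstream of that of Zfp36. Losses were few, with 2 sites held by control but not by restricted livers (4.99% of all sites) and 0 held by control but not by CORT livers (2.05% of all sites). The 2 losses, at Dusp1 and Zfp36, are given with those genes.

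**Figure D2:**
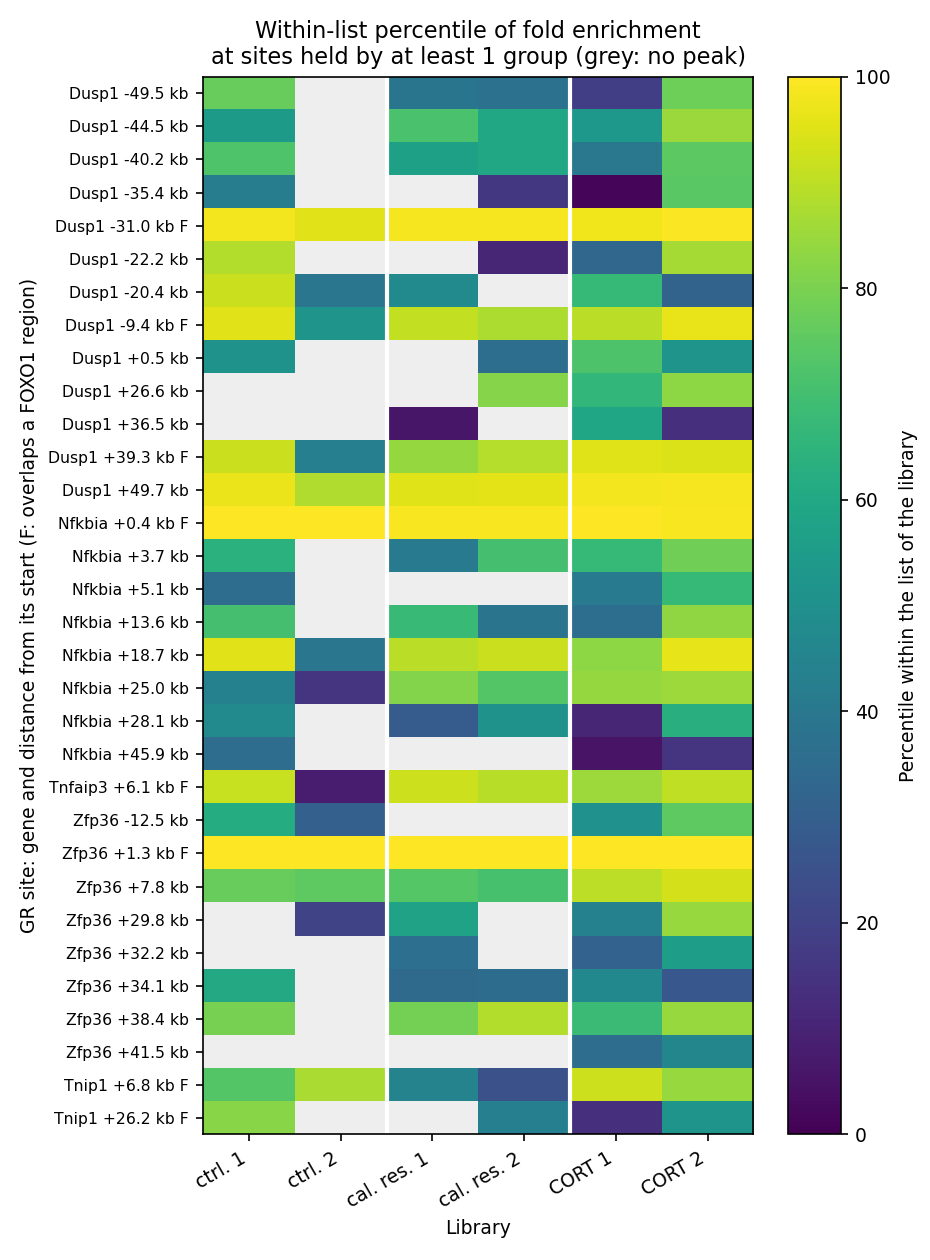
Rows are the 32 sites held by at least 1 group, named by gene and distance from its start in kb, columns are the 6 libraries, and colour is the percentile of fold enrichment within the list of the library, from 0 to 100, with grey for no peak. The column of control 2 (ctrl. 2) is mostly grey or dark, while the strongest sites of Zfp36, Nfkbia and Dusp1 are near 100 in every column.

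At Nfkbia (chr12:55489410-55492647, - strand) the dominant site covered the start of the gene (chr12:55491258-55493228), with its main summit inside an intron, 0.66 kb downstream of the start. Its fold enrichment was 61.6 and 40.6 in the control libraries, 49.0 and 37.6 in the restricted ones and 59.8 and 40.7 in the CORT ones. By fold it ranked 59 and 19 in the control lists, 184 in both restricted lists, and 96 and 456 in the CORT lists. The percentile was 99.8 ± 0.011 (mean ± SD, n = 2) in control, 99.1 ± 0.12 in restricted and 99.3 ± 0.594 in CORT livers, so both treated groups lay lower in their lists than control without overlap, by 0.74 and 0.59 percentile points. The exact two-sided permutation p was 0.333 for each, the smallest that 2 against 2 libraries allow. Summits of the 6 libraries fell within 106 bp, and FOXO1 bound 25 bp from their median, with a fold of 14.5 that ranked 384 of 8068 FOXO1 regions (percentile 95.3).

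The 200 bases around the summit in control 2, where the site stood highest, are shown here with the promoter because both carry a match to the NF-kB consensus, the factor that Nfkbia restrains. Capitals mark matches to the GR palindrome, the GR hexamer AGAACA or the NF-kB motif on either strand. The windows around summits are from the GRCm38.p6 forward strand, and the promoter (RefSeq, GRCm38.p6) is the 250 bases before the start on the strand of the gene.
Nfkbia strongest site, chr12:55491906-55492105, + strand: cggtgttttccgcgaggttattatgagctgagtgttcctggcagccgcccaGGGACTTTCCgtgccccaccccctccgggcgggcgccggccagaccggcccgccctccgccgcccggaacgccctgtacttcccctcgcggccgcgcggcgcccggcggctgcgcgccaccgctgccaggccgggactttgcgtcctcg
Nfkbia promoter, chr12:55492648-55492897, - strand: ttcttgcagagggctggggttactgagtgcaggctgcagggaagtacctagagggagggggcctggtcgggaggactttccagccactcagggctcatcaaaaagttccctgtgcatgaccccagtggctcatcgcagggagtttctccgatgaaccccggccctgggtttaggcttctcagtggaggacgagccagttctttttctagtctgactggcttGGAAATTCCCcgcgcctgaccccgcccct
In the first sequence the match, GGGACTTTCC, lies 44 bp from the GR summit and in the second, GGAAATTCCC, close to the start. Neither sequence holds a GR palindrome or hexamer.

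The same broad site contained a weaker summit right at the promoter, 0.08 kb upstream of the start, which falls within the promoter sequence above. Its fold was 8.91 and 4.18 in control, 7.97 and 5.53 in restricted and 18.8 and 24.97 in CORT livers. Both CORT values thus stood above the other 4, and in percentiles (92.6 and 96.4 in CORT against 76.4 and 41.0 in control and 70.5 and 57.8 in restricted livers) the order was the same. Relative to their lists, CORT livers thus stood below control at the main summit and above control at the promoter summit.

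A pair of further Nfkbia sites had a peak in all 6 libraries, both between genes, downstream of Nfkbia. The site at 24.97 kb had percentiles of 44.0 and 15.4 in control, 81.6 and 73.4 in restricted and 84.3 and 85.3 in CORT livers, so all 4 treated libraries stood above both controls. Its fold was 5.18 and 3.46 in control, 10.3 and 7.08 in restricted and 13.2 and 12.04 in CORT livers. The site at 18.7 kb gave 95.7 and 39.4 in control, 89.5 and 92.1 in restricted and 83.0 and 96.4 in CORT livers, and the groups overlapped.

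The site 3.69 kb downstream of the Nfkbia start, just past the end of the gene, was absent from control 2 and had percentiles of 63.8 in control 1, 41.3 and 70.5 in restricted and 67.0 and 78.3 in CORT livers. It is shown because it is 1 of 3 sites at the 5 loci with a match to the GR palindrome (GCACAAGCTGTTC), 34 bp from the summit, with an NF-kB match (GGGGTGTCCC) 22 bp from the summit.
Nfkbia downstream site, chr12:55488714-55488913, + strand: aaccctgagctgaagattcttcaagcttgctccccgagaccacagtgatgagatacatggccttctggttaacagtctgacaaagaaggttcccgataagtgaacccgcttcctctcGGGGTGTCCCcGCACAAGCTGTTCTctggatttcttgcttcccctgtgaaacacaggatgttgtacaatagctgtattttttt
The sites at 13.6 and 28.1 kb were missing from control 2 as well, with percentiles of 70.7 and 47.3 in control 1, 67.4 and 38.6 (13.6 kb) and 29.0 and 51.6 (28.1 kb) in restricted livers. In CORT livers these sites gave 36.1 and 83.5, and 10.8 and 62.9. The sites at 5.10 and 45.9 kb were held by CORT livers alone (41.2 and 67.2, and 5.16 and 15.2), and control 1 had 35.6 at each. The 6 remaining Nfkbia sites were held by no group.

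At Tnfaip3 (chr10:19000910-19015657, - strand) the strongest site lay in an intron, 6.14 kb downstream of the gene start (chr10:19009205-19009827). Its percentiles were 91.7 and 7.83 in control, 92.2 and 89.1 in restricted and 85.2 and 90.5 in CORT livers, and its fold was 14.3 and 3.18, 16.0 and 11.1, and 13.6 and 15.2 in the same order. Control 2 alone stood apart, and the other 5 libraries lay close together. The differences of 40.9 (restricted, exact permutation p = 0.667) and 38.1 percentile points (CORT, exact permutation p = 1) from control both turned negative without control 2, to -1.01 and -3.84. FOXO1 bound 11 bp from the median GR summit of the other libraries, with a fold of 5.39 (percentile 42.1).
The window is shown because its summit falls on the GR hexamer (TGTTCT on this strand), with an NF-kB match 56 bp away and a C/EBP match (TTGCNNAA) 23 bp away.
Tnfaip3 strongest site, chr10:19009392-19009591, + strand: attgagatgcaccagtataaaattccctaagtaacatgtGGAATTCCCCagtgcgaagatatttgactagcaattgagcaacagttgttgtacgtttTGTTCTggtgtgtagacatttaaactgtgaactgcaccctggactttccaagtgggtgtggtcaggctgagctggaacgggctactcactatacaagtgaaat

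A second Tnfaip3 site sat at the promoter (chr10:19014753-19015839, 0.36 kb from the gene start). It had a peak in control 1 (percentile 55.3), restricted 1 (55.0) and CORT 2 (66.8) and in no second library of any group, so that no group held it. FOXO1 bound there with a fold of 6.38 (percentile 60.5). The part of the RefSeq promoter of Tnfaip3 outside annotated UTRs holds a pair of NF-kB matches.
Tnfaip3 promoter, chr10:19015411-19015547, - strand: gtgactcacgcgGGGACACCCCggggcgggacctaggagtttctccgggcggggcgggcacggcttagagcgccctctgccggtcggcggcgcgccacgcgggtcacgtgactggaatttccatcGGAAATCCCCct
The third site, 36.3 kb upstream, had a peak in control 1 only (percentile 10.8).

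At Tnip1 (chr11:54910785-54962917, - strand) the strongest site lay 6.84 kb downstream of the gene start (chr11:54955723-54956428), at the starts of shorter Tnip1 transcripts, and its window is not printed because it lies in annotated UTR. Its fold was 8.34 and 7.37 in control, 5.37 and 3.90 in restricted and 18.5 and 11.7 in CORT livers. Both restricted libraries were the lowest of the 6 and both CORT libraries the highest in fold. In percentiles the site stood at 73.2 and 87.1 in control, 44.8 and 24.8 in restricted and 92.3 and 84.6 in CORT livers, so restricted livers differed from control by -45.4 points without overlap (exact permutation p = 0.333, the smallest possible). The drop was seen against either control library alone, at -38.4 points without control 2 and -52.3 without control 1. These percentiles depend on list length. With lists of equal length, control 1 stood at 22.2 and control 2 at 87.1, and neither restricted library had a region there. CORT livers then gave 81.8 and 51.5. CORT exceeded control by 8.25 points with overlap (exact permutation p = 0.667), and by 15.2 points against control 1 alone, which shares the identifier style of the CORT libraries. FOXO1 bound 67 bp from the median GR summit, in restricted livers, with a fold of 6.71 (percentile 64.7).

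Of the other Tnip1 sites, the intronic site at 26.2 kb overlapped FOXO1 (fold 6.10, percentile 56.3) and had GR percentiles of 82.2 in control 1, 43.1 in restricted 2 and 13.5 and 51.8 in CORT livers. The site at 14.9 kb had a peak in CORT 2 alone, with a percentile of 11.8.

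At Dusp1 (chr17:26505590-26562128, - strand) the strongest site by the gene record lay in an intron of Ergic1 (chr17:26592280-26593937), 31.0 kb upstream of the record's start and 84.6 kb upstream of the RefSeq start. Its fold was 26.2 and 11.1 in control, 40.7 and 32.9 in restricted and 31.3 and 54.3 in CORT livers, and all 4 treated libraries stood above both controls. Percentiles were 98.2 and 95.7, 98.7 and 98.7, and 97.9 and 99.3, so that restricted livers exceeded control by 1.77 points without overlap (exact permutation p = 0.333, the smallest possible) and CORT livers by 1.65 with overlap (p = 0.667, same exact test). Summits of the 6 libraries fell within 25 bp, and FOXO1 bound 37 bp away with a fold of 6.04 (percentile 54.3). Against control 2 alone, which shares their identifier style, restricted livers stood 3.03 points higher, and against control 1 alone CORT livers stood 0.39 points higher.
The window is shown because it holds a match to the GR palindrome (GCACATGCTGTCC) 56 bp from the summit, with C/EBP and AP-1 (TGANTCA) matches nearer to it.
Dusp1 strongest site, chr17:26592616-26592815, + strand: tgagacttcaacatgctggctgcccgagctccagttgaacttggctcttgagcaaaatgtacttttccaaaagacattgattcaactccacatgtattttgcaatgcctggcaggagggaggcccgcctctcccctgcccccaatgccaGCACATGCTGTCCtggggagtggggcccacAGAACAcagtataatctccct

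The other 3 Dusp1 sites held by all 3 groups lay in the long Dusp1 transcript or in Ergic1. The site nearest to the RefSeq start, at -3.91 kb from it (chr17:26511691-26513077), had fold values of 22.7 and 7.54 in control, 20.2 and 18.1 in restricted and 32.9 and 39.4 in CORT livers. Its percentiles of 98.2 and 98.7 in CORT livers stood above 97.2 and 88.1 in control, while restricted livers gave 95.1 and 96.0, and no FOXO1 region overlapped it. The site 14.4 kb upstream of the RefSeq start showed the same order, with 91.8 and 43.3 in control, 84.1 and 88.9 in restricted and 95.3 and 94.7 in CORT livers, and overlapped a FOXO1 region (percentile 40.3). The site 9.42 kb upstream of the gene record overlapped a weak FOXO1 region (percentile 4.98) and its groups overlapped, at 95.4 and 51.9, 90.8 and 87.9, and 89.6 and 96.5.

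The promoter of Dusp1 at its RefSeq start lies outside the window of the gene record, so the wide site there (chr17:26503820-26510285) is not among the 52. Its percentiles were 97.6 and 77.0 in control, 87.6 and 81.5 in restricted and 98.0 and 98.7 in CORT livers, and its fold was 23.8 and 6.08, 12.8 and 8.62, and 31.8 and 39.6. Both CORT libraries stood above the other 4, as at the site just upstream. A FOXO1 region overlapped it (fold 7.82, percentile 75.0).

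The site 26.6 kb downstream of the Dusp1 gene record's start, in an intron of the long transcript and 27.1 kb upstream of the RefSeq start, had no peak in either control library or in restricted 1. It had fold values of 8.69 in restricted 2 and 8.30 and 11.1 in CORT livers (percentiles 82.0, 66.0 and 83.0). It is shown because it holds a GR palindrome, GAACATTCTGTTC, 62 bp from the summit. Each arm reads GAACA on its own strand, and neither extends to the hexamer AGAACA.
Dusp1 intronic site, chr17:26535297-26535496, + strand: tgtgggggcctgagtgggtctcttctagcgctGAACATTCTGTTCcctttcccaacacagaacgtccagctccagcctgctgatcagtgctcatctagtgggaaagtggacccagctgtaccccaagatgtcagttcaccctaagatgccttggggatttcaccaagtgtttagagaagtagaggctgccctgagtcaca
The site at 36.5 kb, also without a control peak, had 6.17 in restricted 1 and 59.1 and 13.7 in CORT livers.

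The 3 Dusp1 sites held by restricted and CORT but not by control livers lay 40.2, 44.5 and 49.4 kb upstream of the gene record, in Ergic1. Control 1 had percentiles of 72.3, 54.6 and 76.7 there, restricted 1 had 56.9, 71.2 and 39.0, and restricted 2 had 59.9, 59.9 and 37.3. CORT 1 had 39.9, 53.4 and 18.6, and CORT 2 had 74.7, 84.8 and 77.8. Control 1 thus lay within the range of the treated libraries at each of them. Sites held by CORT livers alone included those at 0.45 kb downstream (72.0 and 51.8) and 22.2 and 35.3 kb upstream (33.0 and 86.6, and 1.53 and 74.5). At these sites control 1 had 51.3, 88.4 and 42.5, and restricted 2 had 36.02, 10.9 and 16.3. Control 2 and restricted 1 had no peak at any of them. The site 20.4 kb upstream was missing from restricted 2, with 92.0 and 39.4 in control, 47.4 in restricted 1 and 67.1 and 31.6 in CORT livers.

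At Zfp36 (chr7:28376784-28380253, - strand) a site 9221 bp wide (chr7:28374376-28383596) spanned the gene and both its flanks. Its strongest summit, 3.71 kb downstream of the gene start and just beyond the end of the gene, was among the strongest in every list. Fold enrichment there was 108 and 62.2 in control, 144 and 113 in restricted and 125 and 197 in CORT livers. By fold the region ranked 11 and 9 in the control lists, 8 and 6 in the restricted lists, and 5 and 8 in the CORT lists. In percentiles the differences from control were 0.017 points in restricted (exact permutation p = 0.667) and 0.03 in CORT livers (p = 0.333, same exact test, the smallest possible), since the percentile cannot exceed 100. Summits of the 6 libraries fell within 16 bp, and FOXO1 bound 13 bp away with a fold of 12.1 that ranked 679 (percentile 91.6).
The window is shown as that of the strongest GR summit at the 5 loci. None of the searched motifs matched in it.
Zfp36 strongest site, chr7:28376445-28376644, + strand: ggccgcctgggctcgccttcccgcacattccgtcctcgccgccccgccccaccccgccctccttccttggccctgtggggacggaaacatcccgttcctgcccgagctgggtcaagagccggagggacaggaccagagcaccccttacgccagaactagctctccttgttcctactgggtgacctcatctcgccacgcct

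Within this site 7 groups of summits were seen in at least 3 libraries, and 4 in all 6. At the promoter, 0.23 kb upstream of the RefSeq start of Zfp36 and in the UTR of the longer transcript, fold was 13.2 and 8.06 in control, 12.8 and 11.4 in restricted and 23.6 and 37.3 in CORT livers. The summits upstream of the gene start, at -0.99, -1.99 and -2.94 kb, had CORT folds of 18.9 and 26.2, 13.0 and 17.9, and 19.3 and 31.4. Control folds at the same summits were 8.30 and 6.67, 10.1 and 6.24, and 23.8 and 10.9, so CORT lay above control without overlap at the nearer pair and overlapped it at the farthest. Restricted folds were 12.9 in library 1 alone, 8.66 and 6.15, and 16.4 and 10.4. Restricted 2 had a summit nearby, at -0.86 kb with a fold of 6.41, that was grouped apart from the summit at -0.99 kb. FOXO1 summits lay 8, 40, 57 and 39 bp from these 4 summits, and with that at 3.71 kb, all 5 FOXO1 regions at Zfp36 fell inside this site.

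**Figure D3:**
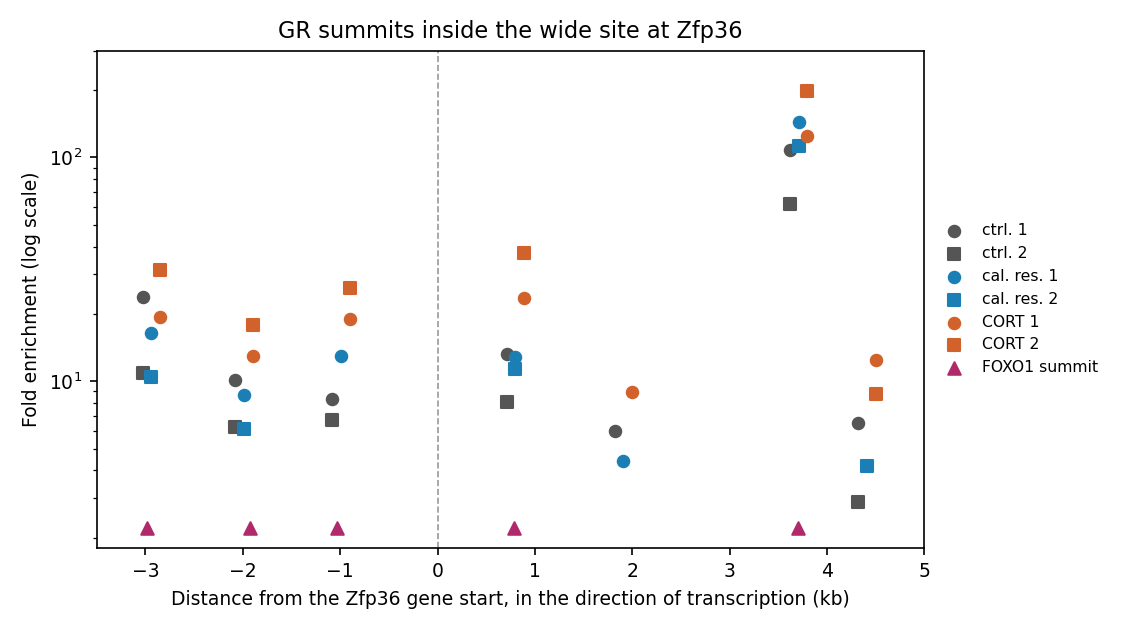
GR summits inside the wide site at Zfp36: the horizontal axis is the distance from the gene start in kb, the vertical axis is fold enrichment on a log scale, colours are the groups (grey ctrl., blue cal. res., orange CORT), circles are library 1, squares library 2 and triangles FOXO1 summits (their height has no meaning). The summit at 3.71 kb stands above the rest in all 6 libraries, and at 0.8 kb both CORT points (23.6 and 37.3) lie above the other 4.

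The second Zfp36 site in all 6 libraries lay 7.82 kb downstream of the start, at the promoter of Plekhg2. It gave percentiles of 76.6 and 75.3 in control, 73.7 and 70.7 in restricted and 90.0 and 93.5 in CORT livers, so restricted livers lay below and CORT livers above control without overlap. Sites gained in both treated groups lay 38.4 kb downstream (control 1 at 79.5, restricted at 79.0 and 88.3, CORT at 68.3 and 84.7) and 34.1 kb downstream (60.3, 34.4 and 35.2, 46.6 and 27.3). Sites held by CORT livers alone lay at 41.5 kb (35.8 and 45.8), 32.2 kb (31.6 and 55.8, with 36.6 in restricted 1) and 29.8 kb (43.8 and 84.5, with 20.3 in control 2 and 57.5 in restricted 1). The site 12.5 kb upstream, near the starts of Med29 and Paf1, was held by control (62.0 and 30.7) and CORT livers (50.6 and 75.3) and had no peak in either restricted library.

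**Figure D4:**
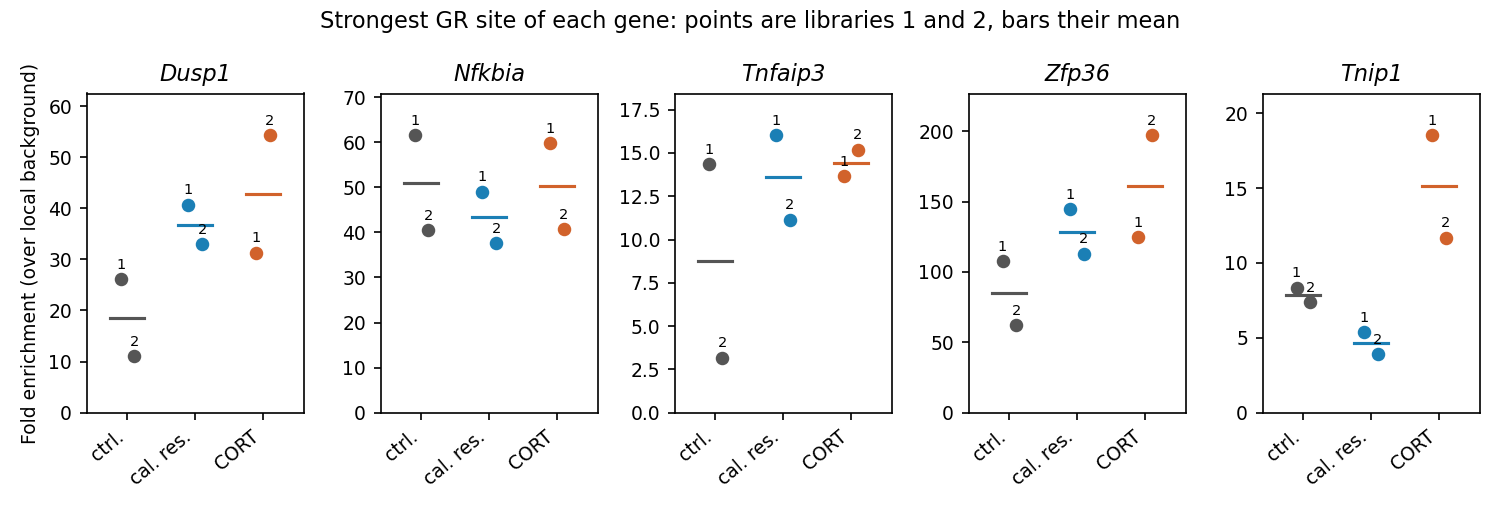
Fold enrichment over local background at the strongest GR site of each gene, on axes from 0: points are libraries 1 and 2 of ctrl., cal. res. and CORT, and bars are the mean of the 2. At Tnip1 the restricted points (5.37 and 3.90) lie lowest and the CORT points (18.5 and 11.7) highest, and at Tnfaip3 only control 2 (3.18) stands apart.

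Across the loci, 11 sites had a peak in all 4 libraries of the comparison of restricted with control livers. Both restricted percentiles lay above both controls at 2 of them (the sites at Dusp1 31.0 kb upstream and Nfkbia 24.97 kb downstream), against 11.4% of all such sites, and below at 3 (Nfkbia 0.40 kb, Zfp36 7.82 kb and Tnip1 6.84 kb), against 21.1%. For CORT livers 13 sites could be compared, with both libraries above both controls at 5, against 27.1%, and below at 1, the main Nfkbia site, against 5.73%. Counted by single summits rather than by merged sites, CORT lay above control at 9 of 17 summit groups (27.8% of all summit groups) and below at 1 (5.48%). Restricted livers lay above at 2 of 14 (13.1%) and below at 6 of 14 (18.9%). Of the 9 CORT summit groups, 5 lay in the wide Zfp36 site, so they share a locus. Among the 6 restricted groups below control, those at 0.8, -1.99 and -2.94 kb of Zfp36 share that site too. These calls rest on percentiles, and the folds of restricted and control libraries overlapped at each. At 0.8 kb the percentiles were 87.5 and 89.7 in restricted against 89.9 and 90.4 in control livers.

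Each of the 5 genes had a GR site that overlapped a FOXO1 region, as did 31.2% of all protein-coding genes. Of 13 FOXO1 regions in the windows (5 at Zfp36, 3 at Dusp1, 2 at Tnfaip3, 2 at Tnip1 and 1 at Nfkbia), all 13 overlapped a GR site, as did 93.6% of all FOXO1 regions. Each had a GR summit group within 100 bp, at distances of 8 to 67 bp. The same share over all FOXO1 regions is not given here, so this closeness cannot be called particular to these loci. On the GR side, 9 of 52 sites overlapped FOXO1, against 13.9% of all sites, and 7 of the 11 sites held by all 3 groups did, against 50.7% of all sites so held. The strongest GR site of each of the 5 members overlapped FOXO1, against 30.4% of the strongest sites of all genes with a site, and against 64.5% of those of genes that ranked no lower than Tnip1, the lowest member. Of the 9 sites with FOXO1, 7 had a GR peak in all 6 libraries, compared with 4 of the 43 without, and over all sites these shares were 57.5% and 9.01%. FOXO1 was mapped in restricted livers alone, so its binding in control and CORT livers was not analysed here.

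Motifs were searched by their letters in 200 bp around the highest summit of each site, on both strands. The GR palindrome, GNACANNNTGTNC, matched at 3 of 52 sites (1.89% of all sites) and the hexamer AGAACA, which can overlap it, at 11 (18.4%). The NF-kB consensus matched at 6 sites (2.18% of all sites), 3 at Nfkbia, 2 at Tnfaip3 and 1 at Zfp36. AP-1 matched at 6 (6.68%) and C/EBP at 10 (15.1%), while the forkhead motif bound by FOXO factors, GTAAACA, matched at 1 (5.19%), which was not among the sites that overlapped FOXO1. STAT (TTCNNNGAA) matched at 3 (8.16%), HNF4 (CAAAGTCCA) at 1 (1.47%), the E-box CACGTG at 2 (4.72%) and the CRE TGACGTCA at 0 (0.665%). Of all RefSeq promoters (250 bases before the start), 3.9% held an NF-kB match. Of the members' promoters, that of Nfkbia held 1 match, 1 of 2 for Tnfaip3 held 2, that of Tnip1, which no GR site covered, held 3 that overlap each other, and those of Dusp1 and Zfp36 held 0.

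**Figure D5:**
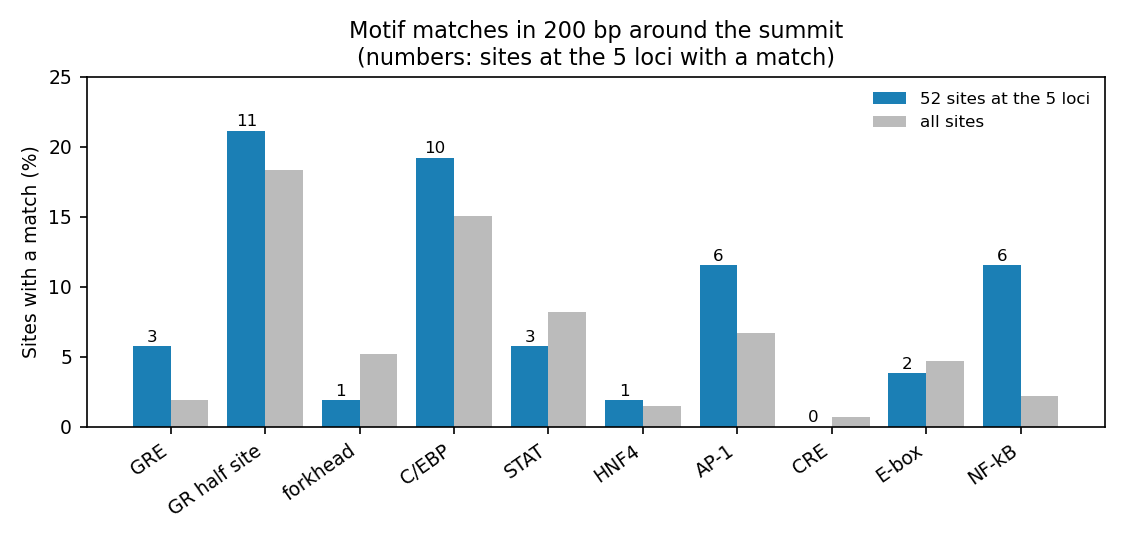
Share of sites with a motif match in 200 bp around the summit, in percent, for the 52 sites at the 5 loci (blue, with the number of sites above each bar) and for all sites (grey). The NF-kB bar of the 5 loci (6 sites, 11.5%) is taller than that of all sites (2.18%), and the forkhead bar is lower (1 site).

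Among the other genes of these pathways, GR binding ranged from Itch and Mapk14, near the top of every list, to Tnip3, Dusp9, Anxa1 and Cd163, which had no site. Among 13 other inhibitors and feedback regulators of NF-kB, 7 had a site held by all 3 groups, as did 5 of 9 other MAP kinase phosphatases, 4 of 6 genes of the ZFP36 family and other glucocorticoid-induced genes, and 8 of 17 NF-kB subunits and kinases, against 37.9% of all protein-coding genes. The median of the strongest-site percentile (mean over 6 libraries, absent taken as 0) was 65.9, 31.5, 86.9 and 51.0 in these lists, 98.1 in the members and 51.9 in all genes with a site. A site gained in restricted livers was found at 5, 2, 4 and 8 genes of these lists and at 3 of 5 members, against 27.1% of all genes. A site gained in CORT livers was found at 9, 4, 4 and 8 genes and at 4 of 5 members, against 48.9%.

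The highest-ranked genes of these lists were Itch and Bcl3, Dusp6 and Dusp16, Zfp36l2 and Zfp36l1, and Mapk14 and Rel. Itch, a ubiquitin ligase that works with A20, had strongest-site percentiles of 99.5 and 97.6 in control, 99.7 and 99.5 in restricted and 99.4 and 99.2 in CORT livers. Bcl3, a nuclear IkB protein, had 99.0 and 93.5, 96.4 and 96.7, and 98.0 and 99.0. Dusp6, an ERK phosphatase, had 98.3 and 69.3, 93.5 and 92.1, and 97.6 and 98.1. At all 3 genes the control libraries lay further apart than the libraries of either treated group.
Dusp16, a phosphatase of JNK and p38, had 97.7 and 43.8 in control, 85.2 and 82.9 in restricted and 86.0 and 93.7 in CORT livers. Zfp36l2 had 94.8 and 76.1, 92.5 and 93.5, and 91.4 and 94.5, and Zfp36l1 had 93.7 and 79.6, 95.2 and 78.5, and 94.5 and 96.4. Both are paralogues of Zfp36 that also promote mRNA decay. Mapk14, which encodes the p38α kinase that Dusp1 inactivates, had 98.6 and 98.9, 97.9 and 96.2, and 99.5 and 98.6, and Rel, an NF-kB subunit, had 86.6 and 71.9, 71.8 and 64.7, and 83.0 and 66.3. Of these 8 genes, chosen as the highest-ranked of their lists, all but Rel had FOXO1 at the strongest site, and over the 4 lists this held for 15 of 41 genes with a site.

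The genes whose strongest-site percentiles were most like those of a member, by mean absolute difference over the 6 libraries, differed from it by little at the strong sites. For Zfp36 these were Slc45a1 (0.017 points), E030018B13Rik and Klf13 (0.0215 each, at a shared site). For Nfkbia they were Coq5, Cox6a1 and Dynll1 (0.247, at a shared site), and for Dusp1 they were Dydc1, Dydc2 and Mat1a (0.395, at a shared site). Tnfaip3 was most like Angpt4 (2.39), Hspb1 (2.6) and Cyp2d12 (2.64). Tnip1 was most like Zfp868 and Zfp964 (4, at a shared site) and Adnp (5.36). Restricted livers were lowest at these genes too, which follows from choosing them by likeness and is no separate observation. Adnp had 39.997 and 21.7 in restricted, 79.9 and 87.4 in control and 78.3 and 87.8 in CORT livers.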

How the data were processed

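GR and FOXO1 binding was measured by ChIP-seq in mouse liver. According to the study's methods and the submitters' processing notes, the authors aligned reads with BWA 0.7.17 to mm10, removed duplicates with Picard 2.27.1, filtered with Bamtools 2.5.2 and called peaks with MACS2 2.2.7.1, per library for GR and on merged libraries for FOXO1. The control library used in peak calling is not given in the sources used here. The deposited lists give for each summit the fold enrichment (a ratio over local background) and −log10 p and −log10 q. In the deposited GR lists the largest q was just under 0.1, while in the deposited FOXO1 list it was 9.84e-06. The lists hold no read counts. The study states a general depth for its ChIP-seq but none per library, so list length limits what could be seen.

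Rows sharing at least 1 bp were merged across the 6 GR lists. Rows of the same region differ by summit and were counted as 1 region. A percentile is 100 times the rank of fold within the list over its regions, and a site took its best summit. A library without a peak was set to 0 in means. The strongest site of a gene had the highest mean percentile over the 6 libraries. Groups of 2 were compared by a two-sided exact permutation test over libraries, in which 6 groupings exist and p cannot fall below 0.333. The study calls the libraries of a group biological replicates and does not say whether livers were pooled. Summits within 100 bp were grouped. Values were given for every site held by at least 1 group, the window around the summit was printed for strongest sites and sites with a GR palindrome, 3 most alike genes were named per member, and 2 per pathway list. The members and all lists were chosen with earlier results of these data known. Starts came from GENCODE M21, and sequences and RefSeq starts from GRCm38.p6, whose chromosome lengths contain all peaks. Scripts ran in Python 3.11.15 (pysam 0.24.0 for sequences, pandas 2.3.3 and NumPy 2.4.6 for tables, SciPy 1.17.1 for ranks), and site merging was tested on simulated data. Alternatives covered the q threshold, list length, window, gene assignment, overlap, libraries left out and motif window.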

Additional observations from a re-analysis of the deposited data

How the results depend on the processing

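Of 120 recomputed counts at the 5 loci, 86 stayed within 1.5 times the reported count, and of 95 recomputed differences at the strongest sites 91 kept their direction. Not all of these could change, so the tallies do not count independent checks. Requiring a peak in all libraries compared, or pairing libraries by replicate number (straight or crossed), returned the reported difference by construction. A single identifier style repeated the difference without 1 control library. The number of sites in all was fixed when either library sufficed. With q of at most 1e-05 there were 34 sites, of which control livers held 7 and CORT livers 20. With lists of equal length (the strongest 12458 regions each) there were 28 sites, CORT livers held 14, and gains numbered 5 in restricted and 4 in CORT livers. When either library sufficed to hold a site, control, restricted and CORT livers held 36, 30 and 49, and restricted livers gained 3. A window of 25 kb gave 27 sites, 10 held by restricted and 15 by CORT livers, with gains of 2 and 5. A window of 100 kb gave 81 sites, 22 held by control and 31 by restricted livers, and 15 that overlapped FOXO1. Counting sites only for the gene with the nearest start, CORT livers held 20 and gained 11. Around RefSeq starts, an alternative chosen after seeing the data, restricted livers gained 5. Against control 1 alone, CORT livers gained 5. In a window of 100 bp, the GR palindrome matched at 1 site (1.34% of all sites), the hexamer at 7 (10.3%), the E-box at 1 (2.35%) and NF-kB at 3 (1.07%).

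Leaving out each library in turn, sites numbered 44 to 52, those held by control livers 13 to 35, by restricted livers 19 to 25 and by CORT livers 32 to 47, restricted gains 0 to 13, CORT gains 5 to 34, and overlaps with FOXO1 9 to 10. The highest control count and the lowest gains came without control 2, restricted gains of 13 came without either restricted library, and CORT gains of 34 without CORT 1. The Tnfaip3 differences from control ranged from -1.01 to 82.8 in restricted and from -3.84 to 80.002 in CORT livers, the Zfp36 difference in restricted livers from -0.00115 to 0.0355, and each was negative only without control 2. Against control 1 alone, within 1 identifier style, the Tnfaip3 difference in CORT livers was -3.84 as well.

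Deviations of same-numbered libraries from their group means correlated weakly over 8097 sites. The values were -0.0468 (control and restricted), -0.125 (control and CORT) and 0.0737 (restricted and CORT). With 2 libraries per group, whether same-numbered libraries were processed together was not tested. With the replicate block, differences equalled those reported (Tnip1 in restricted livers -45.4, exact sign-flip p = 0.5, the smallest it allows) and none could pass a threshold. Crossed pairing of control with CORT libraries, chosen after seeing the data, gave 0 calls for the same reason.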
